A study of Homo sapiens with 12 samples.

Results

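The genes described here encode the translation initiation factors of the eIF1 to eIF6 families and the elongation factors of the eEF1 and eEF2 families, with the kinases, exchange factor subunits, binding proteins, and methyltransferases that carry their names. The rule takes genes by name, as every protein-coding gene of the count table whose symbol starts with EIF and a digit from 1 to 6 or with EEF and a digit from 1 to 2, and uses no measured value. This gave 71 of the 58735 genes in the table. EIF3C and EIF3CL, near-identical copies on chromosome 16, were summed and treated as 1 gene throughout, which left 70, and the Y-linked EIF1AY is named but its level is not given, which left 69. Of these 69 genes, 63 passed the filter on low counts in every comparison. The 6 others were EEF1G, EIF2S3B, EIF4E1B, EIF4EBP3, and the read-through genes EEF1AKMT4-ECE2 and EEF1E1-BLOC1S5.

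The cells were TIGK, a human gingival keratinocyte line immortalized with telomerase (hTERT), and all were grown at 48 mM glucose. The Arg-treated groups received 500 μM L-Arginine for 24 or 48 h, and the untreated control groups had no Arg added to a medium for amino acid labelling that is made without it. Each of the 4 groups held 3 RNA sequencing libraries, labelled A, B, and C, of the same line, and the study asked how Arg changes the transcriptome of these cells. The labels do not say whether the 3 libraries of a group came from separate cultures, so the p-values measure the spread between these libraries, which may be technical.

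Translation of most mRNAs starts when eIF4E binds the cap and eIF4G links it to the helicase eIF4A and to the 40S subunit, which carries eIF1, eIF1A, eIF3, eIF5, and the ternary complex of eIF2, GTP, and initiator tRNA. The GTP on eIF2 is renewed by eIF2B, and this step is blocked when any of the 4 eIF2 alpha kinases phosphorylates eIF2 alpha. One of them, GCN2, the product of EIF2AK4, is activated when amino acids such as arginine run short. Elongation is carried by eEF1A, which delivers aminoacyl tRNA, by its exchange factor eEF1B, by eEF2, which drives translocation, and by eIF5A, which carries the modified lysine hypusine.

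Many mRNAs of this machinery start with a C followed by an unbroken run of pyrimidines, the terminal oligopyrimidine (TOP) motif, through which mTOR signalling controls their translation. A TOP-like start was searched for in the RefSeq promoter sequences of GRCh38.p14 as a C at the transcription start followed directly by at least 4 bases that are C or T, on the strand of the gene, in any listed start. The search was chosen after the values below had been seen, and a match is a description of the sequence only. Of the 69 members, 56 were searched. EEF1A2, EEF1AKMT1, EEF1AKMT3, EEF2KMT, EIF2AK1, EIF2S2, EIF3A, EIF3G, and EIF3L had no entry, and EEF1D, EIF3E, EIF3H, and EIF4EBP1 were not searched. A TOP-like start was found for 13 members, namely EEF1A1, EEF1B2, EEF2, EIF2A, EIF2D, EIF2S3, EIF2S3B, EIF3D, EIF3F, EIF3K, EIF3M, EIF4A2, and EIF4B. This was 23.2% of those searched, against 5.14% of the 27305 genes in the promoter table and 70.6% of 68 cytosolic ribosomal protein genes. The starts of the most abundant elongation factors and of the initiation factors among the 13 that were called in a comparison below are shown first, each with 10 bases before the start and 20 from the start on, with the pyrimidine run in capitals.
EEF1A1, chr6:73521013-73521042, minus strand: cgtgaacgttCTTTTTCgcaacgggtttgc
EEF2, chr19:3985444-3985473, minus strand: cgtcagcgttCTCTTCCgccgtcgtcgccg
EEF1B2, chr2:206159885-206159914, plus strand: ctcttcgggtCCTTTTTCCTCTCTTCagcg
EIF4B, chr12:53006446-53006475, plus strand: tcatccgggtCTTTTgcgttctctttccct
EIF3D, chr22:36529147-36529176, minus strand: cgcatgtttcCTCTTTTCCTggtttctcaa
EIF3F, chr11:7987327-7987356, plus strand: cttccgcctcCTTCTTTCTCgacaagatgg
EIF3M, chr11:32583821-32583850, plus strand: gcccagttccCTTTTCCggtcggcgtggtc

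By contrast, the following starts of members that changed with time or with Arg begin with no such run, and each is 1 of the listed starts of its gene, none of which is TOP-like.
EIF5A, chr17:7306989-7307018, plus strand: tgggaacccgaccacactagcgcgctagaa
EIF6, chr20:35284698-35284727, minus strand: tggtaagctggtgtgaggggaacctgggag
EIF5, chr14:103334227-103334256, plus strand: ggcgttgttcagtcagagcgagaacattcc
EIF4G2, chr11:10807977-10808006, minus strand: tgtcggaagcacttccctaacttgcgcctg

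The libraries held between 16542243 and 19040964 counts. Library B of the untreated control at 48 h stood apart from the other libraries of its group, with a chi-square per degree of freedom of 20.9 against A and 23.9 against C, where A and C gave 3.66, and with 1.55% of its counts from mitochondrially encoded genes against 0.906% and 0.707%. Counts that rest on this group are therefore also given without library B. In the 24 h groups the gaps were smaller, with 12.3 and 12.5 for control library B, where A and C gave 6.54. For library A with Arg they were 12.4 and 10.9, where B and C gave 5.41. At 24 h the share of mitochondrially encoded counts also moved with the treatment, with 1.2% to 1.3% in the control and 0.624% to 0.802% in the Arg-treated libraries. All 10 keratinocyte markers had counts, and their summed level was between 43845 and 56027 CPM (counts scaled to a common library total) in every library. The 6 fibroblast markers, led by DCN, summed to between 30.2 and 54.4 CPM at 24 h and between 72.7 and 103 CPM at 48 h, and the 4 endothelial markers to at most 3.01 CPM at 24 h and between 4.09 and 6.41 CPM at 48 h. Of 4 melanocyte markers, TYR was at 0, and the list summed to between 1.03 and 3.06 CPM. With 3 libraries against 3, the smallest two-sided p of an exact permutation test of a single value is 0.1, so differences were tested in the edgeR fit over all genes. In bulk RNA, fewer cells of a type and less RNA per cell cannot be told apart.

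Together the 69 members summed to between 24690 and 28043 CPM in each library. Levels were compared between genes as CPM per kb of exonic length, as a mean over the 12 libraries of all 4 groups. The order of genes in this measure depends on the length used. The elongation factors held the highest values. EEF1A1 was found at 1629 ± 93.4 CPM per kb (SD, n = 12), followed by EIF5A at 551 ± 112 and EEF2 at 409 ± 29.7. EEF1B2, a subunit of the eEF1B exchange factor, stood at 246 ± 25.7, and EEF1D, another subunit, at 22 ± 2.09. Their exonic lengths were 1915 and 9390 bases, and without division by length they stood at 470 and 207 CPM. In both families with a tissue-restricted second gene, the common gene prevailed, with EEF1A1 184 times the level of EEF1A2 and EIF5A 238 times the level of EIF5A2 per kb.

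Among the initiation factors, EIF3I led the eIF3 complex at 223 ± 25.3 CPM per kb and 12 of the 13 eIF3 genes lay between 27.1 and 223 CPM per kb. The exception was the summed EIF3C and EIF3CL at 6.81 ± 1.68. The length used for EIF3I was 1725 bases, where the GENCODE v44 annotation gives 9526. By CPM alone, EIF3E (591), EIF3B (496), and EIF3A (466) stood above EIF3I (384). EIF4H, a cofactor of the helicase, was found at 219 ± 22.4, EIF4G2, an eIF4G relative without the eIF4E binding site, at 192 ± 25.4, and EIF4G1, the main scaffold, at 118 ± 8.31 CPM per kb. The cap-binding protein EIF4E stood at 7.17 ± 0.863 CPM per kb, and its repressor EIF4EBP1 at 49.6 ± 5.59. Without division by length the order was the other one, with EIF4E at 101 CPM and EIF4EBP1 at 53.2 CPM. The length used for EIF4E was 14067 bases, where the GENCODE v44 annotation gives 4971. The 4 eIF2 alpha kinases were ordered with EIF2AK1 (HRI) at 25.2 ± 1.49, EIF2AK2 (PKR) at 9.1 ± 0.653, EIF2AK4 (GCN2) at 7.03 ± 0.461, and EIF2AK3 (PERK) at 3.19 ± 0.57 CPM per kb. Each step in that order was larger than the SD of either neighbour. The 5 eIF2B subunits lay between 7.13 and 18.8 CPM per kb, and the lowest 3 of them, EIF2B2, EIF2B5, and EIF2B4, did not differ beyond their SD.

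**Figure D1:**
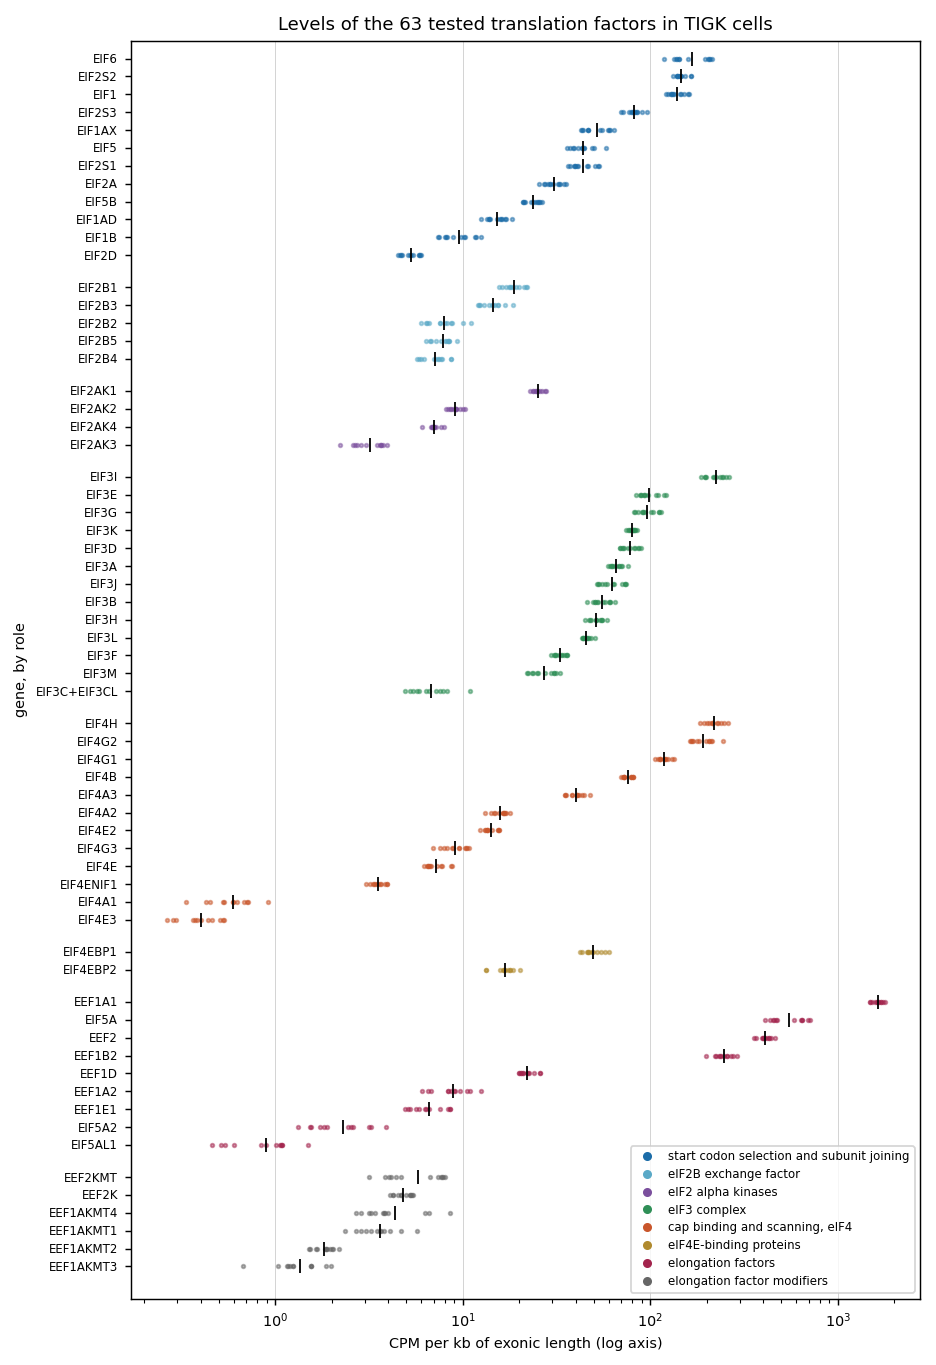
Levels of the 63 tested members in CPM per kb of exonic length on a log axis, with genes grouped by role; small points are the 12 libraries and black ticks their means. EEF1A1 (1629), EIF5A (551), and EEF2 (409) lie at the top, and EIF4A1 (0.592) and EIF4E3 (0.402) at the bottom.

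Several members could not be read from these counts. EEF1G, a subunit of eEF1B, had 0 counts in all 12 libraries. In the GENCODE v44 annotation 99.7% of its exonic bases lie in another gene of the same strand, ENSG00000255508, which had 463 counts in all. EIF4A1, one of the helicases, had only 680 counts over the 12 libraries, or 34 to 91 a library, and 47.4% of its exonic bases are shared on the same strand, with the read-through gene SENP3-EIF4A1 among others. EIF4A2 stood 26.7 times above it per kb. EEF1AKMT4 shares 49.2% of its exonic bases with EEF1AKMT4-ECE2, and EIF3C, EIF3CL, EIF5AL1, and EIF2S3B have near-identical copies elsewhere in the genome. Whether shared and repeated sequence set these low counts was not tested, and the values of these genes are uncertain. For EEF1A1 the 39 pseudogene rows in the table held 35160 counts in all, 1.668% of the 2108026 counts of EEF1A1 itself.

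To find out whether Arg altered the factors, the Arg-treated group was compared with the untreated control at each time. At 24 h, 2 of the 63 members were found to be significantly higher in the Arg-treated group, the summed EIF3C and EIF3CL and EIF5, and 1 was significantly lower, EEF1AKMT4 (adjusted p under 0.05, edgeR). Over all 14278 genes tested at 24 h, 2.78% were called higher and 3.85% lower, so that the share of members called was no greater than that of all genes on the lower side and close to it on the higher side. At the unadjusted threshold that the study used, 6 members were higher and 7 lower, where 10.8% and 11.9% of all genes were. The median log2 fold change of the members was 0.03, and that of all genes was 0.00.

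EIF5, the GTPase activator that acts on eIF2 at the start codon (ENSG00000100664, GRCh38 chr14:103333544-103345025), was found at 331, 319, and 367 CPM in the control libraries A, B, and C at 24 h and at 493, 417, and 425 CPM in the Arg-treated ones. All 3 Arg-treated libraries lay above all 3 control libraries. The level rose 1.31-fold with Arg (log2 fold change 0.39 ± 0.09, SE, adjusted p = 0.0098, edgeR). Without control library A the adjusted p was 0.06 in edgeR, with a log2 fold change of 0.37, and the call was lost. At 48 h EIF5 stood at 307, 351, and 334 CPM in the control and at 379, 377, and 369 CPM with Arg, again without overlap, but the difference of 0.18 ± 0.06 on the log2 scale did not pass the adjusted threshold (adjusted p = 0.27, edgeR).

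EIF3C and EIF3CL encode a core subunit of eIF3, the scaffold of the 43S complex. Their sum was 39.7, 34.4, and 40.6 CPM in the control libraries at 24 h and 76.3, 57.3, and 52.7 CPM with Arg. The groups did not overlap, and library A with Arg was the highest of all 12. The sum rose 1.62-fold (log2 fold change 0.70 ± 0.12, adjusted p = 0.00256, edgeR), and by 0.52 on the log2 scale when that library was left out. Kept apart, EIF3C (ENSG00000184110, chr16:28688558-28735730) rose by 0.54 ± 0.10 and EIF3CL (ENSG00000205609, chr16:28379579-28403879) by 1.14 ± 0.25 on the log2 scale, with adjusted p of 0.00481 and 0.0114 in edgeR. Library A with Arg held 549 counts of EIF3CL, where B and C held 258 and 219 and the control libraries 172, 150, and 144. The copies differ too little for these counts to be assigned to one or the other with certainty. The 12 other eIF3 genes were not called at 24 h, and their log2 fold changes ran from -0.25 for EIF3E to 0.18 for EIF3A.

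EEF1AKMT4 encodes a lysine methyltransferase of eEF1A (ENSG00000284753, chr3:184249650-184259585). It was found at 12.1, 11.4, and 15.5 CPM in the control libraries at 24 h and at 7.25, 5.77, and 6.99 CPM with Arg. At 48 h it was found at 6.82, 5.24, and 6.97 CPM in the control and at 5.89, 6.19, and 4.89 CPM with Arg. The 3 control libraries at 24 h thus stood above the 9 others, which lay between 4.89 and 7.25 CPM. The level fell by 0.96 ± 0.17 on the log2 scale with Arg at 24 h (adjusted p = 0.00293, edgeR), and leaving out any 1 library kept this call, with values from -1.05 to -0.82. This gene had only 85 to 267 counts a library.

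None of the textbook control points was called with Arg at either time. EIF2AK4 was found at 81.3, 84.5, and 72.3 CPM in the control at 24 h and at 91.2, 95.1, and 84.4 CPM with Arg, groups that overlap slightly, with a log2 fold change of 0.18 ± 0.09 (adjusted p = 0.23, edgeR). Its log2 fold change at 48 h was 0.02 ± 0.06. EIF2S1, which encodes eIF2 alpha itself, gave 0.01 ± 0.10 at 24 h and -0.02 ± 0.07 at 48 h. The most abundant member, EEF1A1, gave 0.10 ± 0.07 and -0.01 ± 0.05, EEF2 gave -0.04 ± 0.07 and 0.00 ± 0.06, and EIF5A gave -0.05 ± 0.08 and -0.01 ± 0.06. EIF4E gave -0.20 ± 0.09 at 24 h and -0.04 ± 0.07 at 48 h, and EIF4EBP1 gave -0.12 ± 0.10 and -0.02 ± 0.08, none of them past the adjusted threshold. The mRNAs of these factors were measured here, and not their proteins, phosphorylation, or activity.

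**Figure D2:**
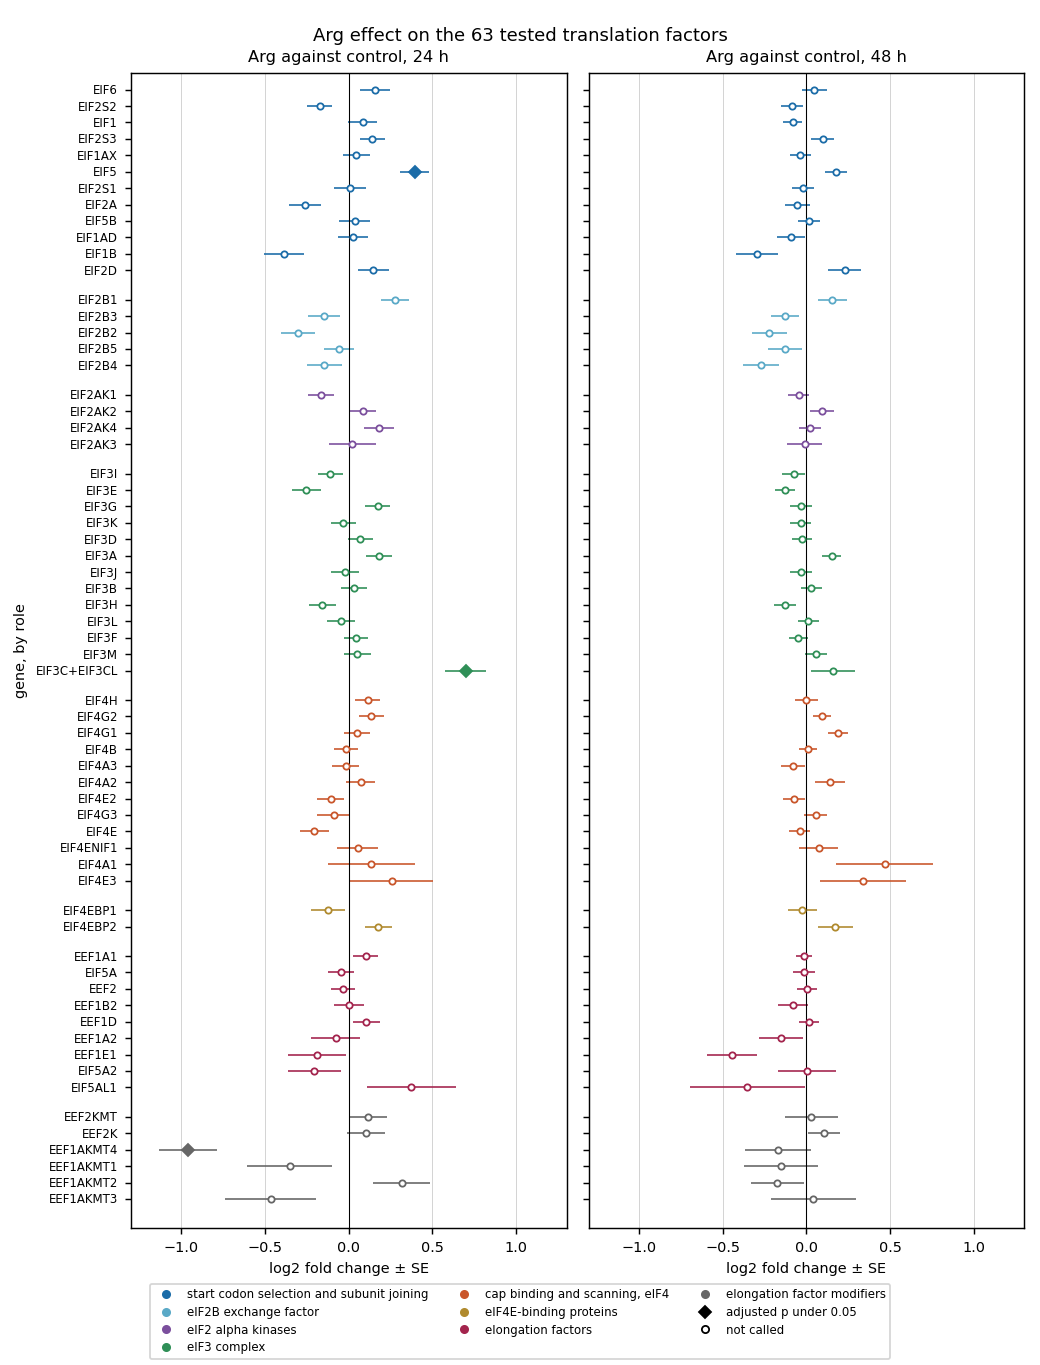
Log2 fold change of Arg against control with its standard error for each tested member, grouped by role, at 24 h (left) and 48 h (right); filled diamonds mark an adjusted p under 0.05. At 24 h EIF5 (0.39), EIF3C+EIF3CL (0.70), and EEF1AKMT4 (-0.96) are marked, and at 48 h no member is.

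By role at 24 h, the 5 eIF2B subunits differed in sign. EIF2B1, the alpha subunit, was found at 65.4, 64.2, and 64.8 CPM in the control and at 77, 80.1, and 78.7 CPM with Arg. EIF2B2, the beta subunit, was found at 60.6, 47.8, and 54.5 CPM in the control and at 47.3, 41.4, and 43.6 CPM with Arg. The groups did not overlap for either gene, and yet neither passed the adjusted threshold in edgeR, with log2 fold changes of 0.28 ± 0.08 (adjusted p = 0.0508) and -0.30 ± 0.10 (adjusted p = 0.0864). At 24 h no member was called among the 5 eIF2B genes, the 4 kinases, the 12 tested eIF4 genes, the 2 tested eIF4E-binding proteins, and the 9 tested elongation factors.

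**Figure D3:**
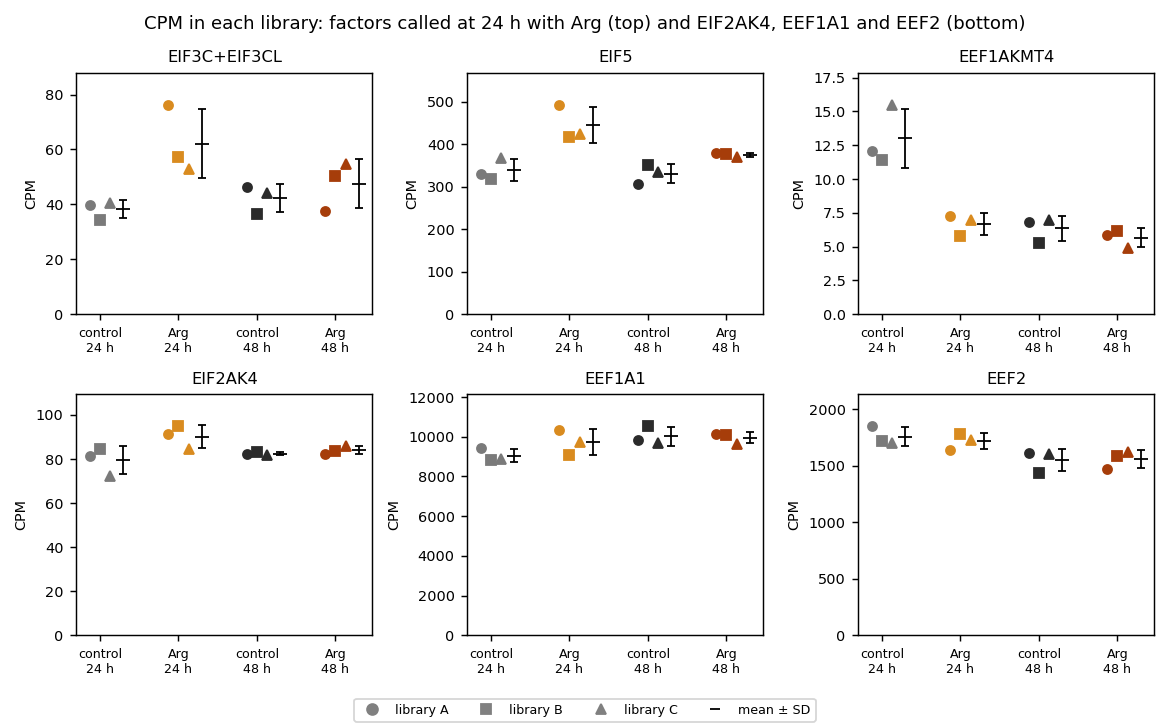
CPM of 6 members in each of the 12 libraries, with the axis from 0; circles, squares, and triangles are libraries A, B, and C, and bars show the mean ± SD of each group (n = 3). EIF3C+EIF3CL and EIF5 lie higher with Arg at 24 h, the control libraries of EEF1AKMT4 at 24 h (11.4 to 15.5) lie above all others, and the groups of EIF2AK4, EEF1A1, and EEF2 overlap between Arg and control.

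At 48 h no member was called at the adjusted threshold in either direction (edgeR), as DESeq2 also found. Over all 14561 genes tested, 0.0% were called higher and 0.117% lower. At the unadjusted threshold 4 members were higher and 4 lower, where 5.84% and 7.58% of all genes were. The smallest p belonged to EIF4G1, the scaffold that joins eIF4E and eIF4A, at 932, 908, and 880 CPM in the control and 976, 1024, and 1111 CPM with Arg. These groups did not overlap, with a log2 fold change of 0.19 ± 0.06 (adjusted p = 0.23, edgeR). EEF1E1, a scaffold protein of the multisynthetase complex, stood at 13.2, 13.9, and 18 CPM in the control and at 11.9, 10.4, and 10.8 CPM with Arg, again without overlap (-0.44 ± 0.15, adjusted p = 0.24, edgeR). EIF3A, the largest eIF3 subunit, gave 0.15 ± 0.06 and EIF2B4, the delta subunit of eIF2B, -0.27 ± 0.11, with adjusted p of 0.28 and 0.31 in edgeR.

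The result at 48 h depended on control library B. Without it, 8 members were called higher and 6 lower in edgeR, where 7.77% of all 14853 genes tested were called higher and 8.17% lower. Those higher were EIF4EBP2, EIF2D, EIF5, EIF4G1, EIF4A2, EIF2S3, EIF3A, and EIF2B1, and those lower were EIF2B4, EIF2B2, EEF1E1, EIF1B, EEF1A2, and EIF2B5. EIF4EBP2, a repressor of eIF4E, stood at 96.7, 129, and 96.8 CPM in the control libraries A, B, and C and at 121, 114, and 130 CPM with Arg, so that library B alone lay among the Arg-treated ones. Its log2 fold change was 0.17 ± 0.10 with the library and 0.33 ± 0.07 without it (adjusted p = 0.0014, edgeR). For EIF2D, a factor of non-canonical initiation, the control held 37.9, 47.2, and 36.6 CPM and the Arg-treated group 48.2, 47.1, and 47.6 CPM, and the log2 fold change without library B was 0.35 ± 0.08. EIF5 was called without it as well, at 0.23 ± 0.06. With the other 5 libraries left out in turn, no member was called at 48 h.

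Whether the Arg effect differed between 24 and 48 h was tested as an interaction over all 12 libraries. No member passed the adjusted threshold (edgeR, and DESeq2 as well), where 0.0132% of all 15147 genes did. At an unadjusted p under 0.05 there were 4, EEF1AKMT4, EIF3C+EIF3CL, EEF1AKMT2, and EIF3G, where 6.86% of all genes passed. The effect on EEF1AKMT4 was higher at 48 h than at 24 h by 0.79 ± 0.25 on the log2 scale (adjusted p = 0.56, edgeR), and the difference for EIF3C+EIF3CL was -0.54 ± 0.20 (adjusted p = 0.60, edgeR). For EIF5 the difference was -0.21 ± 0.11. Without control library B at 48 h, 0 members passed the adjusted threshold in edgeR and 5 the unadjusted one, where 0.181% of all genes were called higher and 0.116% lower and 9.22% passed unadjusted. The rise of EIF5 and of EIF3C+EIF3CL at 24 h and its absence from the calls at 48 h are therefore not shown to be a difference between the times.

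The comparison of 48 with 24 h called more of the factors than that of Arg with control. From 24 to 48 h, 14 of the 63 members fell and 2 rose in the untreated control, and 26 fell and 4 rose in the Arg-treated group (adjusted p under 0.05, edgeR). Among all genes tested, 10% fell and 9.9% rose in the control and 14.0% fell and 14.3% rose with Arg. The falling members were thus 22.2% and 41.3% of those tested, and the median log2 fold change of the members was -0.16 in the control and -0.20 with Arg, against 0.01 and 0.00 for all genes. With library size as the only scaling, the split in the control moved to 12 lower and 4 higher, and that with Arg to 23 and 4. All genes then moved to 6.98% lower and 12.8% higher in the control and to 10.1% and 17.8% with Arg. The members were also more abundant than most genes, with a median level of 126 CPM against 20.5 to 20.7 CPM for the genes tested in these comparisons, and a set of abundant genes was therefore described after these values had been seen. Among the 4164 other genes with a mean of at least 50 CPM, 19.7% fell in the control and 27.5% with Arg, and of the 43 members at that level 23.3% and 44.2% did. The share in the control was thus near that of other abundant genes, and the median log2 fold changes were -0.16 and -0.17 for these members and -0.06 and -0.07 for the other abundant genes.

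The control and Arg-treated libraries of the time comparisons are separate, so the arms can be set side by side. Of the 14 members that fell in the control, 11 also fell with Arg (78.6% of 14 and 42.3% of 26), namely EEF2KMT, EIF1AX, EIF2B2, EIF3B, EIF3I, EIF3J, EIF3M, EIF4G2, EIF5A, EIF5A2, and EIF6, and the 2 members that rose in the control, EIF2AK3 and EIF4G3, rose with Arg too. Among all genes tested in both arms, 72.1% of those that fell in the control and 71.9% of those that rose did the same with Arg. By sign, 45 of the 63 members were lower at 48 h in both arms and 11 were higher in both. In the control 77.8% of the members were lower, against 48.5% of all genes and 58.8% of the other abundant ones, and with Arg 76.2%, against 49.9% and 59.6%. The summed fibroblast markers, which were higher at 48 h as given above, moved with time in the same libraries, and their part in these changes was not tested.

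**Figure D4:**
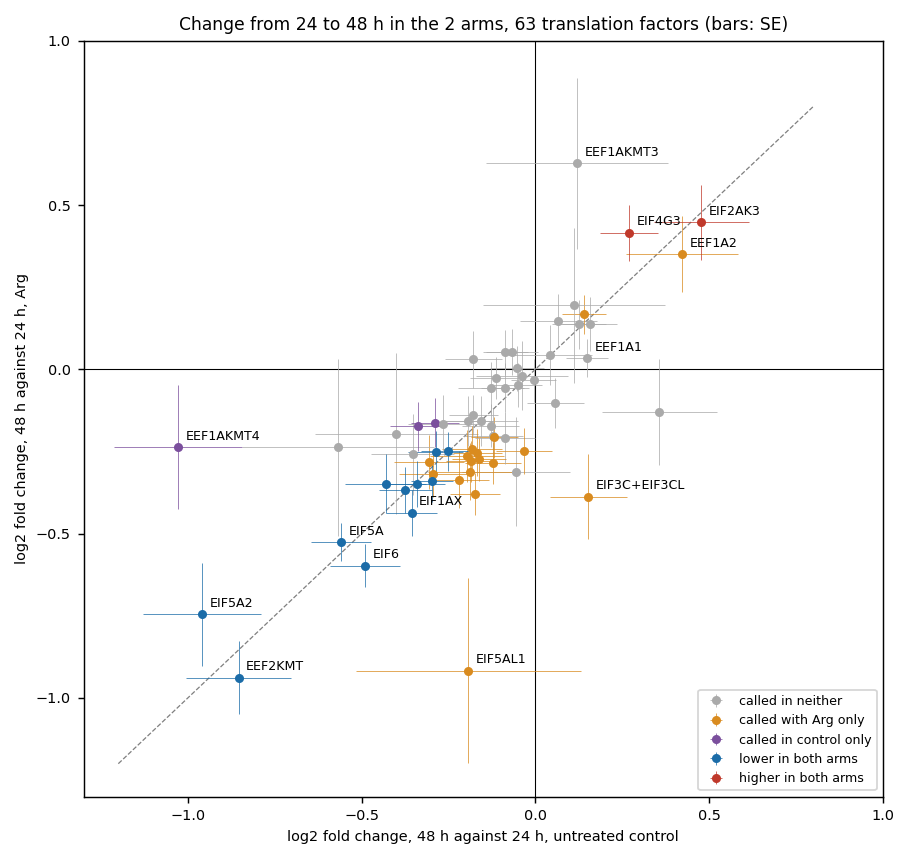
Log2 fold change from 24 to 48 h in the untreated control (horizontal axis) and in the Arg-treated group (vertical axis) for the 63 tested members, with standard errors as bars, a dashed line of equal change, and colours for the calls at an adjusted p under 0.05. Most points lie in the lower left, with EEF2KMT (-0.85 and -0.94), EIF5A2 (-0.96 and -0.75), EIF6 (-0.49 and -0.60), and EIF5A (-0.56 and -0.52) farthest along the line.

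Among the elongation factors, EIF5A gave the clearest fall (ENSG00000132507, chr17:7306999-7312463). In the control it was found at 1996, 1649, and 1957 CPM at 24 h and at 1310, 1153, and 1332 CPM at 48 h. With Arg it was found at 1795, 1815, and 1823 CPM at 24 h and at 1221, 1268, and 1284 CPM at 48 h. No library at 48 h reached the lowest one at 24 h. The log2 fold change was -0.56 ± 0.09 in the control (adjusted p = 0.00246) and -0.52 ± 0.06 with Arg (adjusted p = 1.49e-06, both edgeR). Its paralog EIF5A2 fell from a mean of 17.9 ± 3.75 to 9.17 ± 0.929 CPM in the control and from 15.5 ± 2.33 to 9.21 ± 1.65 CPM with Arg (SD, n = 3), again with no overlap. EIF5AL1, a near-identical copy of EIF5A at 34 to 102 counts a library, was called with Arg at -0.92 ± 0.28 and is uncertain.

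The translocase EEF2 was found at 1853, 1720, and 1698 CPM in the control at 24 h and at 1612, 1438, and 1602 CPM at 48 h, groups without overlap, but its fall of -0.18 ± 0.07 did not pass the adjusted threshold (adjusted p = 0.0936, edgeR), nor did that of -0.14 ± 0.06 with Arg. EEF1A1 was not called and had the other sign, with 0.15 ± 0.06 in the control and 0.04 ± 0.06 with Arg. EEF1A1 made up 33.9% to 42.3% of the summed CPM of the members. Without EEF1A1 the members summed to between 16182 and 17682 CPM at 24 h and between 14390 and 15174 CPM at 48 h, with no overlap between the times. EEF1D fell with Arg by 0.25 ± 0.07, and EEF1A2, the paralog of EEF1A1 found mainly in muscle and nerve, rose with Arg by 0.35 ± 0.12, although its libraries overlap and its call was lost without any 1 of 4 of the 6 libraries, Arg A and B at 24 h and Arg B and C at 48 h, with values from 0.26 to 0.34, and with all 12 libraries in 1 model (adjusted p = 0.115, edgeR).

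EEF2KMT, the lysine methyltransferase of eEF2 (ENSG00000118894, chr16:5084304-5097808), was found at 24.2, 20.8, and 23.1 CPM in the control at 24 h and at 13, 9.86, and 14.7 CPM at 48 h. With Arg it went from 23.9, 25.3, and 24.6 CPM to 12.6, 13.8, and 12.1 CPM. The level at 48 h was 0.553 of that at 24 h in the control and 0.522 with Arg (log2 fold change -0.85 ± 0.15, adjusted p = 0.00428, and -0.94 ± 0.11, adjusted p = 4.72e-06, edgeR). In the GENCODE v44 annotation 31.4% of the exonic bases of EEF2KMT lie in ALG1 on the opposite strand. ALG1 had 7862 counts over the 12 libraries and EEF2KMT 3924. The strand setting of the counts is not given, so EEF2KMT is uncertain as far as reads are shared. EEF1AKMT4 fell in the control by 1.03 ± 0.18 on the log2 scale and was not called with Arg, where the 24 h libraries were already low. The other 4 tested modifiers, EEF2K, EEF1AKMT1, EEF1AKMT2, and EEF1AKMT3, were not called in either arm.

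Among the factors of start codon selection and subunit joining, EIF6 fell in both arms. EIF6 binds the 60S subunit and keeps it from joining the 40S subunit early (ENSG00000242372, chr20:35278911-35284985). It was found at 334, 260, and 321 CPM in the control at 24 h and at 231, 194, and 226 CPM at 48 h, and with Arg at 340, 348, and 332 CPM and then at 225, 232, and 218 CPM. The groups did not overlap in either arm, and the log2 fold changes were -0.49 ± 0.10 (adjusted p = 0.00773) and -0.60 ± 0.06 (adjusted p = 1.22e-06, edgeR). EIF1AX, which encodes the scanning factor eIF1A, fell from 257 ± 15.9 to 200 ± 7.74 CPM in the control and from 265 ± 19.6 to 196 ± 7.82 CPM with Arg (SD, n = 3), and it is uncertain as far as reads are shared with its Y-linked copy. With Arg, EIF2S1 (-0.32 ± 0.07), EIF1 (-0.28 ± 0.06), EIF1AD, and EIF5 (-0.25 ± 0.07) fell as well, so that 6 of the 12 tested genes of the group fell with Arg and 2 in the control. Of all genes 14.0% fell with Arg and 10% in the control, and of the other abundant genes 27.5% and 19.7%.

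All 5 eIF2B subunits were lower at 48 h in both arms by sign. With Arg 4 of them fell, EIF2B2 (-0.35 ± 0.09), EIF2B4 (-0.31 ± 0.09), EIF2B3 (-0.28 ± 0.08), and EIF2B5 (-0.26 ± 0.08), and in the control EIF2B2 alone was called (-0.43 ± 0.12). The shares of all genes that fell were 14.0% with Arg and 10% in the control. Of the 4 eIF2 alpha kinases, EIF2AK3, the kinase of the endoplasmic reticulum stress response, rose in both arms. It stood at 12, 16.6, and 14.8 CPM in the control at 24 h and at 20.5, 20, and 19.8 CPM at 48 h, and with Arg at 14.2, 15.5, and 14.4 CPM and then at 19.7, 18.9, and 21.5 CPM. The groups did not overlap in either arm, and the rise was 1.39-fold in the control and 1.36-fold with Arg (adjusted p = 0.0298 and 0.00663, edgeR). EIF2AK4 was not called, with 0.06 ± 0.08 and -0.10 ± 0.08.

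**Figure D5:**
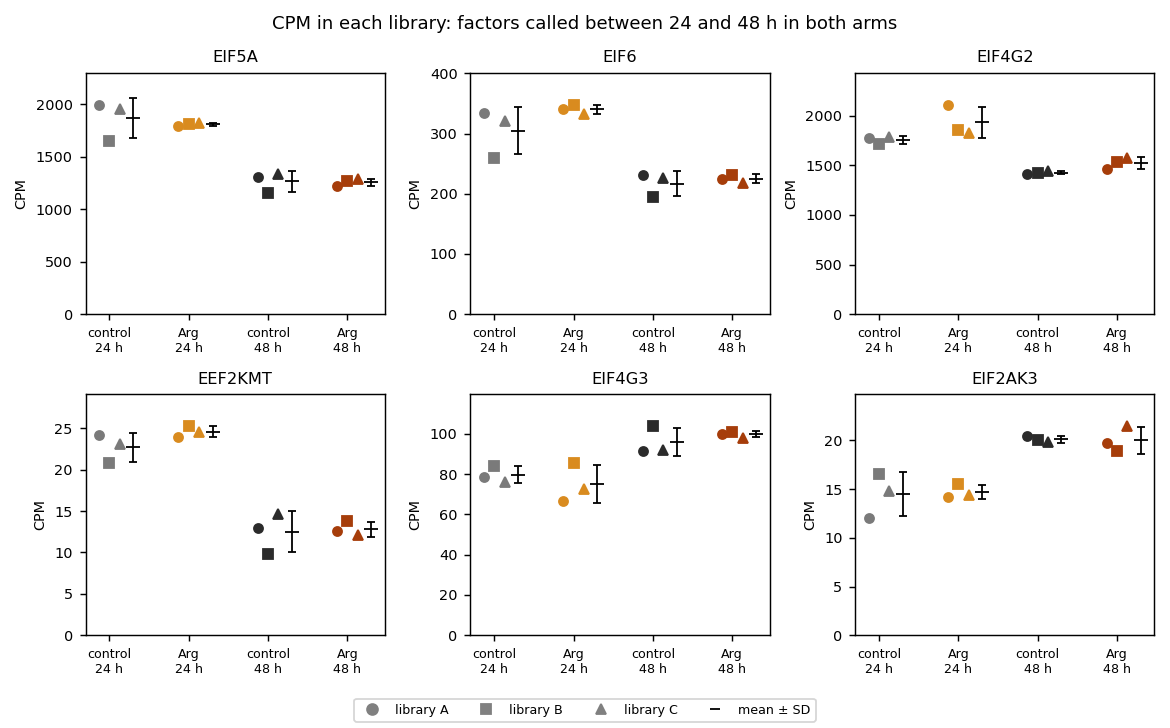
CPM of 6 members called between 24 and 48 h in both arms, in each of the 12 libraries, with the axis from 0; circles, squares, and triangles are libraries A, B, and C, and bars show the mean ± SD of each group (n = 3). EIF5A, EIF6, EIF4G2, and EEF2KMT lie lower and EIF4G3 and EIF2AK3 higher at 48 h, with no overlap between the times within an arm.

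Of the 13 eIF3 genes, 5 fell in the control and 8 with Arg, where 10% and 14.0% of all genes did. Among the other genes with a mean of at least 50 CPM, 19.7% and 27.5% did. EIF3M (-0.37 ± 0.08 and -0.37 ± 0.07), EIF3J (-0.34 ± 0.08 and -0.35 ± 0.07), EIF3I, and EIF3B fell in both arms, EIF3E was called in the control, and EIF3G (-0.38 ± 0.06), EIF3D (-0.28 ± 0.06), EIF3F, and the EIF3C and EIF3CL sum (-0.39 ± 0.13) were called with Arg. The libraries of the EIF3C and EIF3CL sum overlapped with Arg, at 76.3, 57.3, and 52.7 CPM at 24 h and 37.7, 50.3, and 54.6 CPM at 48 h. Kept apart, EIF3C was called with Arg (adjusted p = 0.0298, edgeR) and EIF3CL was not (adjusted p = 0.113, edgeR). In the control the sum had the other sign, at 0.152 on the log2 scale, and was not called. EIF3K, EIF3L, EIF3H, and EIF3A were called in neither. The levels of EIF3G with Arg were 387, 398, and 390 CPM at 24 h and 286, 318, and 300 CPM at 48 h, a gap larger than the spread within either group.

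The eIF4 group moved in both directions. EIF4G2 was found at 1773, 1711, and 1789 CPM in the control at 24 h and at 1412, 1421, and 1446 CPM at 48 h, and with Arg at 2112, 1857, and 1831 CPM and then at 1460, 1539, and 1576 CPM. It fell by 0.30 ± 0.06 and 0.34 ± 0.06 on the log2 scale (adjusted p = 0.00709 and 0.000528, edgeR). Its relative EIF4G3, a scaffold that binds eIF4E, was found at 78.8, 84.2, and 76.1 CPM in the control at 24 h and at 91.6, 104, and 92 CPM at 48 h, and with Arg at 66.9, 85.3, and 72.7 CPM and then at 100, 101, and 98.1 CPM. It rose by 0.27 ± 0.08 and 0.42 ± 0.09 (adjusted p = 0.0423 and 0.0011, edgeR), and with a correction for gene length the rise in the control was 0.18 and was no longer called. EIF4G1 was called in neither arm. EIF4E fell in the control from 118 ± 8.51 to 92.9 ± 1.43 CPM (-0.34 ± 0.08) and EIF4H and EIF4A3 fell with Arg, while EIF4B, a cofactor of eIF4A, went from 446, 430, and 443 CPM to 496, 488, and 496 CPM with Arg (0.17 ± 0.06, adjusted p = 0.0428, edgeR), a call that several alternatives lost. Among the eIF4E-binding proteins none was called with all libraries, and without control library B at 48 h EIF4EBP2 fell in the control (-0.31 ± 0.07, adjusted p = 0.0135, edgeR).

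The time effect in the control rested on single libraries more than that with Arg. Without control library A at 24 h, 5 members fell and 0 rose, where 2.74% and 2.85% of all genes did, with EIF6 at -0.42 (adjusted p = 0.054, edgeR), and EIF1AX, EIF3M, EIF3J, and EIF4E no longer called in edgeR. Without control library C at 24 h, 8 fell and 0 rose, where 3.36% and 3.34% of all genes did, and without control library A or C at 48 h both rises were lost. Without control library B at 48 h, 15 members fell and 2 rose, EIF2AK3 and EEF1A2 (0.57 ± 0.14), where 8.59% and 7.8% of all genes did. The call of EIF4G3 in the control was kept only when library B at 24 h was the one left out. EIF5A, EIF5A2, EEF2KMT, EEF1AKMT4, and EIF4G2 kept their calls in the control with each library left out. The difference between the arms in the change with time is the interaction given above, in which no member was called.

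The members with a TOP-like start were then set beside those without it. From 24 to 48 h with Arg, 3 of the 12 tested members with such a start fell (EIF3D, EIF3F, and EIF3M) and 1 rose (EIF4B), their median being -0.10 on the log2 scale, and of the 38 tested members searched and without it 20 fell and 2 rose, with a median of -0.25. Of all genes, 14.0% fell and 14.3% rose in that comparison. In the control 1 of the 12 fell and 11 of the 38, with medians of -0.12 and -0.19, where 10% of all genes fell. With Arg against control no member with a TOP-like start was called at 24 or 48 h in edgeR with all libraries. Without control library B at 48 h, EIF2D, EIF2S3, and EIF4A2 were called higher with Arg at 48 h, 3 of the 12, against 4 higher and 5 lower of the 38, and from 24 to 48 h in the control 1 of the 12 and 12 of the 38 fell. Of all genes, 7.77% were then called higher and 8.17% lower with Arg, and 8.59% fell in the control. Of the 10 tested members of a list of known TOP mRNAs among these factors, EEF1A2 and EIF4B rose and EEF1D and EIF3F fell from 24 to 48 h with Arg, and EIF3E fell in the control. The difference between members with and without the start was not tested.

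The neighbouring steps of the pathway were given by 5 lists of 44 genes, of which 43 were tested. From 24 to 48 h, 13 of them fell and 1 rose in each arm, to be read against the shares of all genes given above, 10% and 9.9% in the control and 14.0% and 14.3% with Arg. Without control library B at 48 h, 9 of 44 tested fell and 1 rose in the control, where 8.59% and 7.8% of all genes did. The termination factors GSPT1 (eRF3a), at -0.46 ± 0.07 in the control and -0.35 ± 0.07 with Arg, and ETF1 (eRF1) fell in both arms, as did the recycling factor ABCE1, and DENR fell in the control. Of the poly(A) binding and scaffold genes, PABPC4 (-0.47 ± 0.07 and -0.52 ± 0.07), PABPC1, and PAIP1 fell, and PDCD4, an inhibitor of eIF4A, rose from 153 ± 18.3 to 284 ± 23.1 CPM in the control and from 154 ± 18.3 to 279 ± 27.2 CPM with Arg. Of the hypusine and diphthamide enzymes, which modify eIF5A and eEF2, DPH2 (-0.56 ± 0.10 and -0.61 ± 0.09), DPH3, and DPH5 fell in both arms and DPH7 with Arg. Of the other TOP mRNAs NPM1 and RACK1 fell in both arms and HNRNPA1 with Arg. Of the 12 upstream regulators PPP1R15A, a phosphatase subunit that reverses eIF2 alpha phosphorylation, fell in the control, in overlapping libraries. The medians of the 5 lists in these comparisons ran from -0.31 to 0.13.

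With Arg against control, 2 of the 43 tested genes were called lower at 24 h, where 3.85% of all genes were, and 0 at 48 h. Without control library B at 48 h, PAIP2B and RPS6KB2 were called higher and MKNK2, NAP1L1, RACK1, and TPT1 lower at 48 h, where 7.77% and 8.17% of all genes were. MKNK2, a kinase of eIF4E, fell by 0.35 ± 0.09 and NAP1L1, a TOP mRNA, by 0.40 ± 0.07 at 24 h (adjusted p = 0.0215 and 0.00375, edgeR), and at an unadjusted p 4 were higher and 4 lower at that time. The mRNA of ATF4, the main effector downstream of GCN2 and eIF2 alpha, was found at a mean of 312 CPM in the control and 335 CPM with Arg at 24 h, with a log2 fold change of 0.10 ± 0.07, and its target DDIT3 at 5.49 and 5.48 CPM. At 48 h the log2 fold change of ATF4 was -0.03 ± 0.06, and DDIT3 stood at 7.48 CPM in the control and 5.71 CPM with Arg, without overlap (-0.39 ± 0.17, adjusted p = 0.34, edgeR). Of 85 tested cytosolic ribosomal protein genes, by comparison, 5 were called lower with Arg at 24 h and 5 at 48 h and 0 higher, where 3.85% and 0.117% of all genes were called lower, with medians of -0.16 and -0.19 on the log2 scale, where those of the initiation and elongation factors were 0.03 and -0.01. At an unadjusted p 42 were lower at 24 h and 58 at 48 h, where 11.9% and 7.58% of all genes were. Without control library B at 48 h, 56 were called lower and 2 higher at 48 h. The difference between the families was not tested.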

How the data were processed

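Poly(A) RNA of 12 TIGK libraries was sequenced, 3 for each of the 4 groups, and the authors deposited raw read counts per gene. The submitters' processing notes name fastp, STAR, featureCounts, and GRCh38 (hg38). Versions, annotation release, strand setting, and the treatment of reads with several matches are not given in the sources used here. The 16542243 to 19040964 counts a library set the precision of low genes. Columns of per-sample values left out numbered 0.

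Groups were taken from the sample labels. The Arg effect at each time and the effect of time in each arm were each tested in the libraries concerned, and their interaction in all 12, with edgeR 4.0.16 (TMM, filterByExpr, quasi-likelihood test) in R 4.3.3, with Benjamini-Hochberg adjustment over all genes tested and a threshold of 0.05. Levels are CPM after TMM over the 12 libraries, or CPM per kb of the exonic length in the file. The code was tested on simulated data. Alternatives were DESeq2 1.42.0 and its size factors, library size only, no filter or at least 10 counts in every library, a correction for exonic length (lowess span 0.3, prior count 2), all libraries in 1 model, EIF3C and EIF3CL as 2 genes, a replicate block, and leaving out each library. The fits of lists and starts without control library B at 48 h were added after seeing the data. Deviations of same-letter libraries from their group means were weakly correlated (r from -0.0615 to 0.135). This does not decide whether the letters pair the libraries, and the main fits used no pairing.

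The set of genes and the lists were proposed with earlier results of these data known. Named were the called members, at most 10 a direction by p, the 5 with the smallest p where fewer than 3 passed, 7 textbook control points, and at most 5 called genes of each pathway list. Others were named after their values were seen. The level of the Y-linked member and 1 list of cell type markers are not reported here.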

Additional observations from a re-analysis of the deposited data

Results flagged for a closer look

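EEF1AKMT2, a lysine methyltransferase of eEF1A, had log2 fold changes of opposite sign with Arg at the 2 times. It was picked from the members for this pattern, at 110 to 178 counts a library. At 24 h it was found at 7.04, 6.49, and 6.37 CPM in the control and at 8.6, 8.5, and 7.74 CPM with Arg. At 48 h it was found at 8.24, 9.23, and 7.99 CPM in the control and at 6.94, 7.86, and 7.89 CPM with Arg. The groups overlapped at neither time, with Arg above control at 24 h and below it at 48 h. The log2 fold changes were 0.32 ± 0.17 and -0.17 ± 0.16, neither of them called, and the effect at 48 h minus that at 24 h was -0.49 ± 0.21 (adjusted p = 0.71, edgeR), which passes 0.05 unadjusted but fails the correction over all genes.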

How the results depend on the processing

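Over the named gene results, 508 of 523 values from alternatives that kept all libraries had the direction and the side of the threshold of the reported one, 8 were no longer called, and 7 changed sign; of 348 values with 1 library left out, these numbers were 301, 26, and 16, and 5 became called. Members called higher with Arg at 24 h numbered 3, against 2, with DESeq2, all 12 libraries in 1 model, and library size only. The same number was found with at least 10 counts in every library and with the length correction. Of all genes, 1.67% to 3.09% were called higher in these settings. Members called lower with Arg at 24 h numbered 2 with no filter and with the length correction and replicate block together, against 1. At an unadjusted p at 48 h, 2 were higher and 2 lower with that combination, against 4 and 4, and 2 passed in the interaction with it or with no filter, against 4. From 24 to 48 h in the control, 1 rose with the length correction, 4 with library size only, and 4 with the replicate block, against 2, and 23 fell with the length correction and replicate block and 24 with the block alone, against 14, while the share of all genes that fell went from 10% to 14.9% and 14.4%. No shared origin of same-letter libraries is stated in the labels. The block gave 2 higher and 1 lower with Arg at 24 h, where 2.65% and 3.82% of all genes were called. At 48 h it gave 0, where 0.24% of all genes were called higher and 0.893% lower. From 24 to 48 h with Arg it gave 3 higher and 25 lower, where 13.4% and 12.9% of all genes were called.

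Over fits that each lacked 1 library, the members called with Arg at 24 h ranged from 1 to 2 higher and 1 to 4 lower, and from 3 to 6 and 4 to 13 at an unadjusted p. The 4 and 13 lower were found without control library B at 24 h. The 4 are to be read against the 6.02% of all genes called lower there at the adjusted threshold. For the 13, the unadjusted share of all genes in that fit is not given here. With all libraries it was 11.9%. At 48 h the members called ranged from 0 to 8 higher and 0 to 6 lower, and from 1 to 9 and 0 to 11 unadjusted. From 24 to 48 h they ranged from 0 to 2 higher and 5 to 19 lower in the control. With Arg they ranged from 2 to 3 and from 20 to 30, and the interaction from 1 to 5 unadjusted. Over the same fits, the share of all genes called at the adjusted threshold moved as well. With Arg against control it was 0.853% to 4.42% higher and 1.59% to 6.02% lower at 24 h. At 48 h it was 0.0% to 7.77% higher and 0.0336% to 8.17% lower. In the control from 24 to 48 h it was 2.85% to 10.7% higher and 2.74% to 11.6% lower. In the Arg-treated group it was then 10.4% to 12.4% and 9.31% to 12.9%.

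The values that changed sign belonged to Arg effects on control points, called under no setting of those comparisons, and the cause was not tested. With the length correction, EIF2S1 at 24 h was -0.004, and at 48 h EIF2AK4 was -0.041, EIF4EBP1 0.049, and EIF5A 0.031, and with the block added these 3 were -0.041, 0.048, and 0.032. Leaving out 1 library gave ranges at 24 h from -0.10 to 0.08 for EIF2S1, from -0.13 to 0.004 for EIF5A, and from -0.065 to 0.004 for EEF2. At 48 h the ranges were -0.067 to 0.022 for EIF2S1, -0.079 to 0.029 for EIF4EBP1, -0.072 to 0.026 for EIF5A, -0.037 to 0.031 for EEF1A1, and -0.044 to 0.043 for EEF2. Depth limits the members of few counts, such as EEF1AKMT4 and EIF4A1.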
